A study of Mus musculus with 18 samples.

Results

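The iRTE group holds 5 of the 18 RNA sequencing libraries of this mouse T-cell series, and the labels give those 5 names of different styles: iRTE 1, 2 and 3 are called matureA, matureB and matureC, whereas iRTE 4 and 5 are called pmel_iRTE followed by a number. All genes were compared between these sets of libraries, 3 against 2, and each of iRTE 4 and iRTE 5 was then set beside iRTE 1 to 3 on its own. All 5 libraries are labelled untreated CD8+ T cells differentiated from a Pmel iPSC, an induced pluripotent stem cell source. The sort, as labelled, stained for CD8, CD4, CD45 and the alpha-beta receptor, and a dump gate took out cells with NK1.1, CD11c or the gamma-delta receptor. The growth label of every library names OP9-DL1, a stromal line that presents a Notch ligand, whereas the design text places 1 group of CD8+ cells in a 3D thymic culture. iRTE is taken as that group by elimination. The other libraries came from CD4+CD8+ cells of the same source (DP, n = 3), CD8+ cells of the same source on OP9-DL1 (OP9 CD8, n = 5) and naive CD8+ cells of the spleen of transgenic mice (splenic CD8, n = 5). No label says whether libraries of a group came from separate differentiations, iPSC clones, animals or days, so a p-value speaks only of the spread among these libraries, which may be technical. The name style, the depth and any unrecorded batch cannot be told apart.

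As background, a CD8+ thymocyte that has been selected gains the receptors that guide naive cells (Ccr7, S1pr1) and enters the circulation as a recent emigrant. Engagement of the T-cell receptor in such a cell switches on immediate early transcription factors such as Fos, Egr1 and Nr4a1, then the retention receptor Cd69 and the feedback phosphatases of the Dusp family, and later Myc and the cell cycle. Type I interferon, sterol demand and cytokines each drive their own target genes. Pmel cells carry a transgenic receptor for a melanocyte antigen, whose beta chain uses the segment Trbv14.

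Totals were 11691286 to 12768601 counts in iRTE 1 to 3, 16533373 in iRTE 4 and 15654546 in iRTE 5, against 11132768 to 19305751 over all 18 libraries. Genes with a count numbered 14970 to 14974, 15332 and 16239 in the same order. Mitochondrially encoded genes took 1.76% to 2.17% of the counts of iRTE 1 to 3, 0.903% in iRTE 4 and 0.868% in iRTE 5. Ribosomal protein genes took 4.61% to 6.39%, 3.2% and 3.42%. Levels below are CPM, counts scaled to the depth of each library, after TMM normalization over all 18 libraries. A count of 3, taken as the floor per library, equals 0.265 to 0.289 CPM in iRTE 1 to 3, 0.187 in iRTE 4 and 0.193 in iRTE 5, which covers counting error only. Unless stated otherwise, 5 values in a row belong to iRTE 1, 2, 3, 4 and 5 in that order, and a log2 fold is that library, or set, over iRTE 1 to 3. "Higher" and "lower" as calls mean an adjusted p under 0.05 in edgeR's quasi-likelihood test with Benjamini-Hochberg adjustment over all genes tested.

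By the root mean square difference over all genes, every pair of iRTE libraries lay farther apart than any pair within another group, iRTE 1 and 2 by a small margin. Over 11904 genes, libraries differed in log2 CPM by a root mean square of 0.734 for iRTE 1 and 2, 0.887 for iRTE 1 and 3 and 0.851 between iRTE 2 and 3. It was 1.15, 1.16 and 1.29 between iRTE 4 and these 3 libraries, 1.17, 1.14 and 1.19 between iRTE 5 and them, and 1.29 between iRTE 4 and iRTE 5. Pairs of splenic CD8 libraries ranged from 0.364 to 0.454, pairs of OP9 CD8 from 0.479 to 0.622 and pairs of DP from 0.494 to 0.726. Among genes with at least 10 CPM in either library of a pair, the share past 2-fold ran from 1.55% between iRTE 1 and 2 to 23.1% between iRTE 3 and 4, and was 21.5% between iRTE 4 and 5. That share was 0.303% to 5.06% for pairs of DP, so iRTE 1 and 2 lay within the DP range by this measure. iRTE 4 and 5 were as far from each other as iRTE 4 was from iRTE 3, the widest of the other pairs. Of the sum of squares among the 5 libraries, 37.5% lay between the sets (1 degree of freedom), 34.2% between iRTE 4 and iRTE 5 (1 degree of freedom) and 28.2% within iRTE 1 to 3 (2 degrees of freedom, 14.1% each). On the first principal component (38.7% of the variance) iRTE 4 lay farthest out, at 82.4. iRTE 5 lay on the same side, at 21.3, and iRTE 1 to 3 on the other, at -49.1 to -26.1. The second component (33.9%) held iRTE 5 apart, at 86.0, with the other libraries at -39.5 to -7.70.

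**Figure D1:**
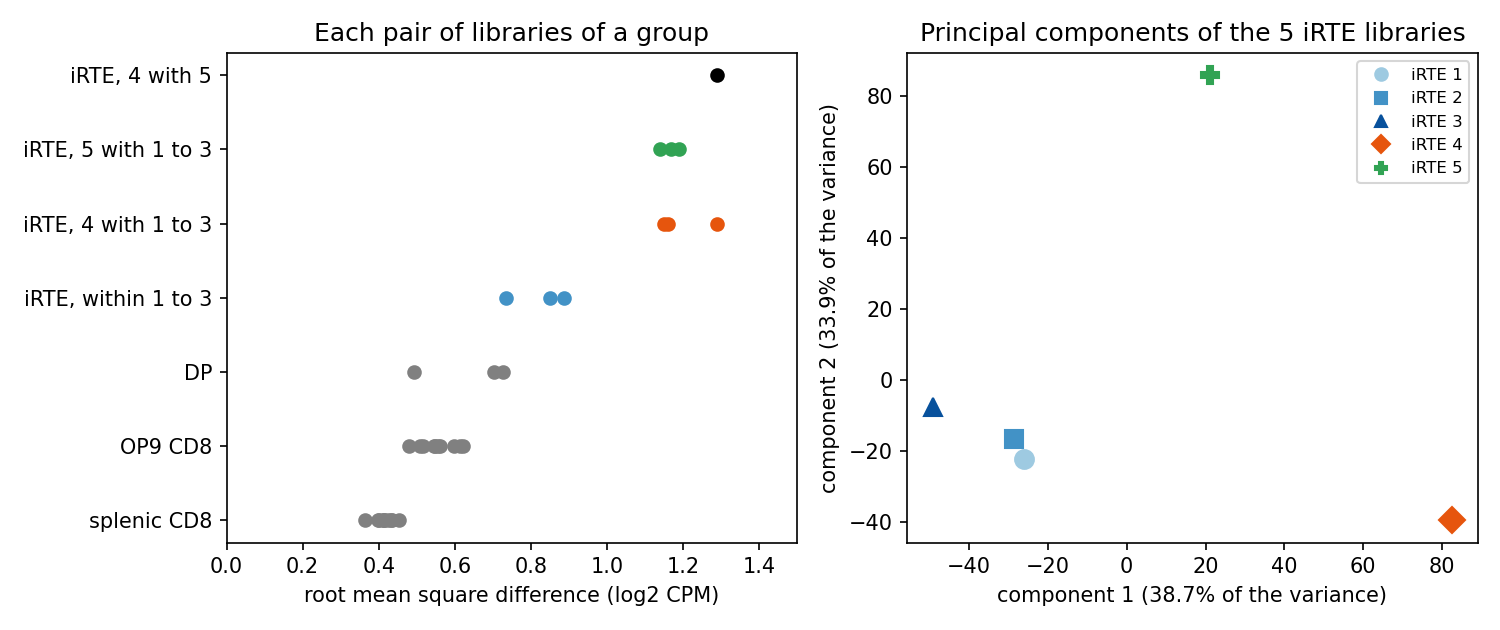
Left, the root mean square difference in log2 CPM of each pair of libraries within a group (1 point per pair, x axis in log2 units). Right, the 5 iRTE libraries on their first and second principal components, in arbitrary units of log2 CPM. The pair of iRTE 4 and 5 lies at 1.29, beyond every pair of the other groups, and iRTE 4 and iRTE 5 sit at the far ends of different components.

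Few genes were called between the sets, in a test of 3 libraries against 2. Of 11904 genes tested, 0 were called higher and 3 lower in iRTE 4 and 5 (0.0252% called). The unadjusted p was under 0.05 for 1460 genes (12.3%), and the levels of the sets did not overlap for 1736 genes above (14.6%) and 2019 below (17%). Nov, a secreted matricellular protein of the CCN family, stood at 1076, 1033, 1087, 158 and 215 CPM. The mean of iRTE 1 to 3 was 1065 ± 28.3 CPM (SD, n = 3). Nov was called lower (log2 fold -2.47, SE 0.22, n = 3 and 2, edgeR adjusted p = 0.0462). Scin, an actin-severing protein of the gelsolin family, stood at 47.6, 68.6, 36.3, 2.31 and 2.06 CPM (mean of iRTE 1 to 3 50.9 ± 16.4, SD, n = 3), a log2 fold of -4.50 (SE 0.28, edgeR adjusted p = 0.0462). Tgm2, a protein-crosslinking transglutaminase, stood at 58.6, 39.9, 50.6, 0 and 0 CPM, with no count in iRTE 4 or 5 (edgeR adjusted p = 0.0159). Its mean over iRTE 1 to 3, 49.7 ± 9.37 CPM (SD, n = 3), was at least 266-fold the floor of iRTE 4 and at least 258-fold the floor of iRTE 5. For these 3 genes the 2 libraries lay together, and far below the other 3. In splenic CD8 cells Nov had no count in any library, Scin lay between 0 and 1.07 CPM and Tgm2 between 1.26 and 2.19 CPM. Nov ranged over 240 to 245 CPM in DP and 301 to 356 in OP9 CD8 libraries. These ranges lay above iRTE 4 and 5 and far below iRTE 1 to 3, so iRTE 4 and 5 were the nearer to both groups. Leaving out iRTE 1, 2 or 3 left none of the 3 called, while a fit of all 18 libraries, in which the other groups supply part of the spread, called 1010 genes higher and 887 lower. With limma-voom Nov alone was called, and DESeq2 called 212 genes higher and 282 lower.

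Set beside iRTE 1 to 3 alone, iRTE 4 had 212 of 12479 genes higher (1.7%) and 396 lower (3.17%), 4.87% in all, and iRTE 5 had 325 of 12676 higher (2.56%) and 302 lower (2.38%), 4.95% in all. In these fits the lone library is assumed to vary like iRTE 1 to 3, and both fits share those 3 libraries as controls. The sums of squares above do not show such equal spread: iRTE 4 against iRTE 5 took 34.2% on 1 degree of freedom, beside 14.1% for each degree within iRTE 1 to 3. The calls thus set a single library against the spread of 3 others, and their adjusted p-values may be too small for a difference between conditions. Without iRTE 3 the calls rose to 1256 and 1492 for iRTE 4 and to 1433 and 1847 for iRTE 5. Over all 5 libraries, iRTE 4 stood more than 4-fold above every other one for 36 genes (0.443%) and more than 4-fold below every other one for 92 (1.21%). iRTE 5 did so for 60 (0.722%) and 33 genes (0.438%), iRTE 3 for 1 and 2, and iRTE 1 and iRTE 2 for 0. Genes counted here had at least 10 CPM in the library that stood above, or in each of the other 4 where it stood below. Between iRTE 5 and iRTE 4, 932 of 8734 genes were past 2-fold higher in iRTE 5 (10.7%) and 944 higher in iRTE 4 (10.8%), a comparison of 1 library with 1 library and without a test. Gene lists are described by their mean log2 CPM in every library and by the number of their members called.

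**Figure D2:**
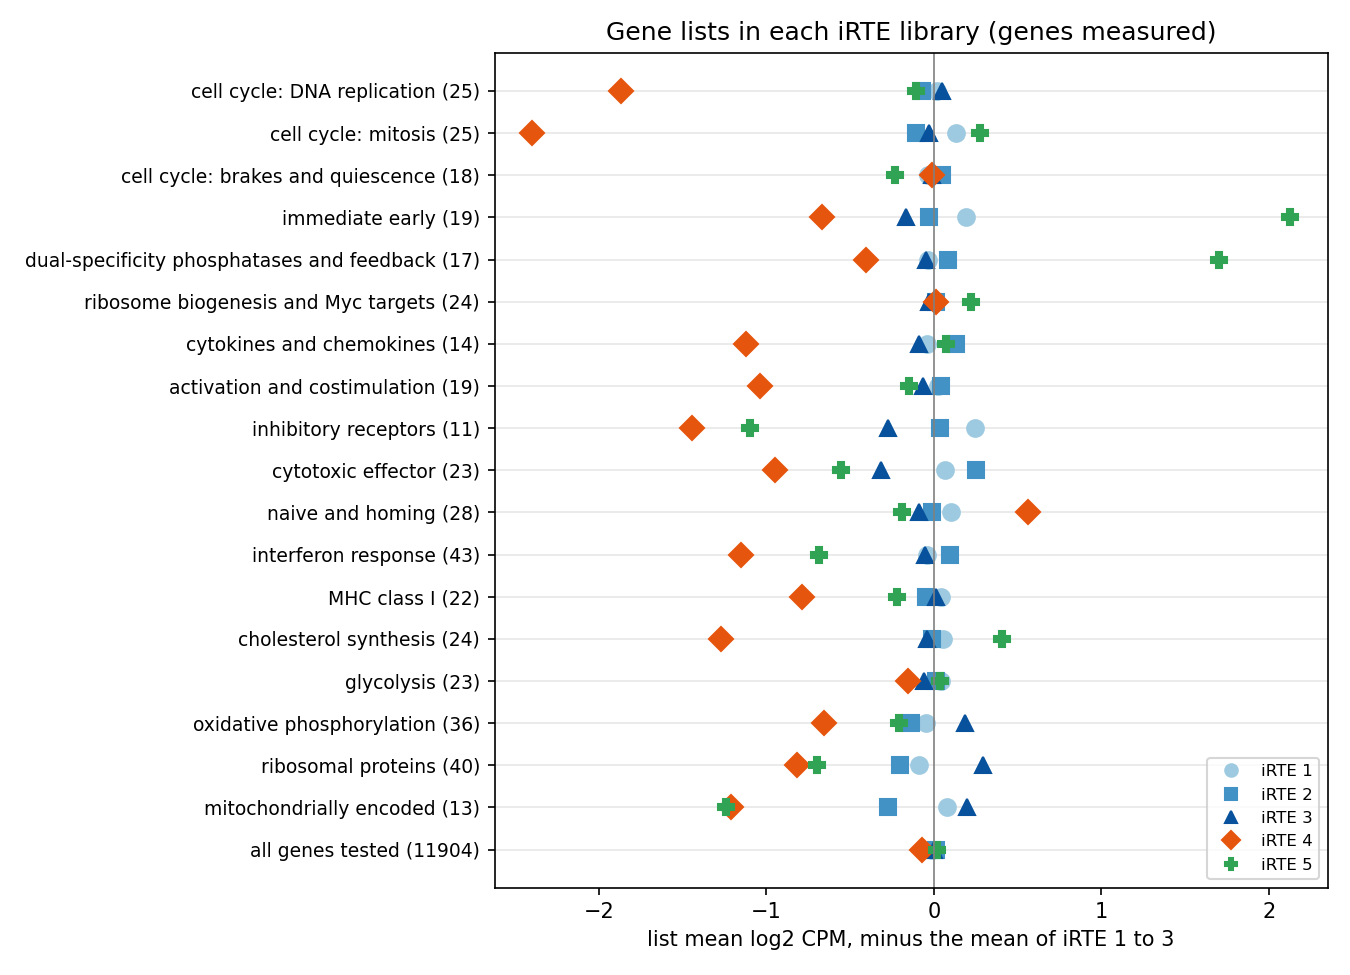
Mean log2 CPM of each gene list in each iRTE library, minus the mean of iRTE 1 to 3 (x axis, log2 units); the number of genes measured stands in brackets. iRTE 4 lies lowest for the replication and mitosis lists, iRTE 5 highest for the immediate early and feedback lists, and both lie below iRTE 1 to 3 for ribosomal and mitochondrial genes.

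The clearest feature of iRTE 4 was its low level of cell-cycle genes. The DNA replication list averaged 6.42, 6.33, 6.45, 4.53 and 6.29 log2 CPM, and 19 of its 25 members were called lower in iRTE 4, with a median log2 fold of -1.99 against 0 over all genes. The mitosis list averaged 5.81, 5.57, 5.65, 3.28 and 5.95, and 23 of its 25 members were called lower, with a median log2 fold of -2.27. The share of all genes called lower was 3.17%. For iRTE 5, 0 replication members were called in either direction in its fit (edgeR), 1 mitosis member was called higher and 0 lower, and all 25 mitosis members were more than 2-fold higher in iRTE 5 than in iRTE 4. With 1 library left out in turn, 16 to 22 replication members and 23 to 25 mitosis members were called in iRTE 4.

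Among the replication genes, Cdc6, which loads the replicative helicase, stood at 39.4, 39.7, 45.2, 3.62 and 38.3 CPM (log2 fold -3.48, edgeR adjusted p = 0.00264). Uhrf1, which carries DNA methylation through replication, stood at 179.6, 209.6, 276, 34.7 and 265 CPM (log2 fold -2.63, edgeR adjusted p = 0.00469). Both were several-fold lower in iRTE 4 than in each of the other libraries. Subunits of the replicative helicase gave smaller differences. Mcm3 stood at 379.8, 368, 383, 107 and 309 CPM (log2 fold -1.78, edgeR adjusted p = 0.00496) and Mcm2 at 302, 307, 363, 162 and 307 CPM, which missed the threshold (log2 fold -0.96, edgeR adjusted p = 0.0508).

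Among the mitosis genes, Ube2c, the ubiquitin-conjugating enzyme of the anaphase-promoting complex, stood at 76.6, 65.9, 87.6, 6.98 and 71.5 CPM (log2 fold -3.42, edgeR adjusted p = 0.00217). Nusap1, a spindle protein, stood at 99.8, 90.4, 87.9, 15.1 and 98.4 CPM (log2 fold -2.58, edgeR adjusted p = 0.00308). Top2a, the topoisomerase that untangles replicated chromosomes, stood at 252, 240.4, 252, 61.1 and 216 CPM (log2 fold -1.98, edgeR adjusted p = 0.00408), and Birc5, the survivin subunit of the chromosomal passenger complex, at 98.4, 80.2, 88.8, 13.5 and 127 CPM (log2 fold -2.69, edgeR adjusted p = 0.00308). In each of these 4 genes iRTE 4 was the only library that stood apart, and the other 4 lay within 2-fold of each other. The proliferation marker Mki67 spread more widely, at 35.3, 42, 51.1, 5.92 and 147 CPM, and was called lower in iRTE 4 (log2 fold -2.81, edgeR adjusted p = 0.00577) and higher in iRTE 5 (log2 fold 1.81, edgeR adjusted p = 0.00455). The replication and mitosis means of the splenic CD8 libraries were 4.35 to 4.42 and 3.02 to 3.38, so iRTE 4 lay within the splenic range for mitosis and just above it for replication. The OP9 CD8 means were 7.10 to 7.39 and 6.54 to 6.95, above all 5 iRTE libraries. Clustered histone genes, whose copies share reads and whose transcripts mostly lack a poly(A) tail, averaged 1.66, 1.28, 1.54, -0.59 and 1.24 log2 CPM, and 0 of 41 tested were called in iRTE 4 (edgeR).

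**Figure D3:**
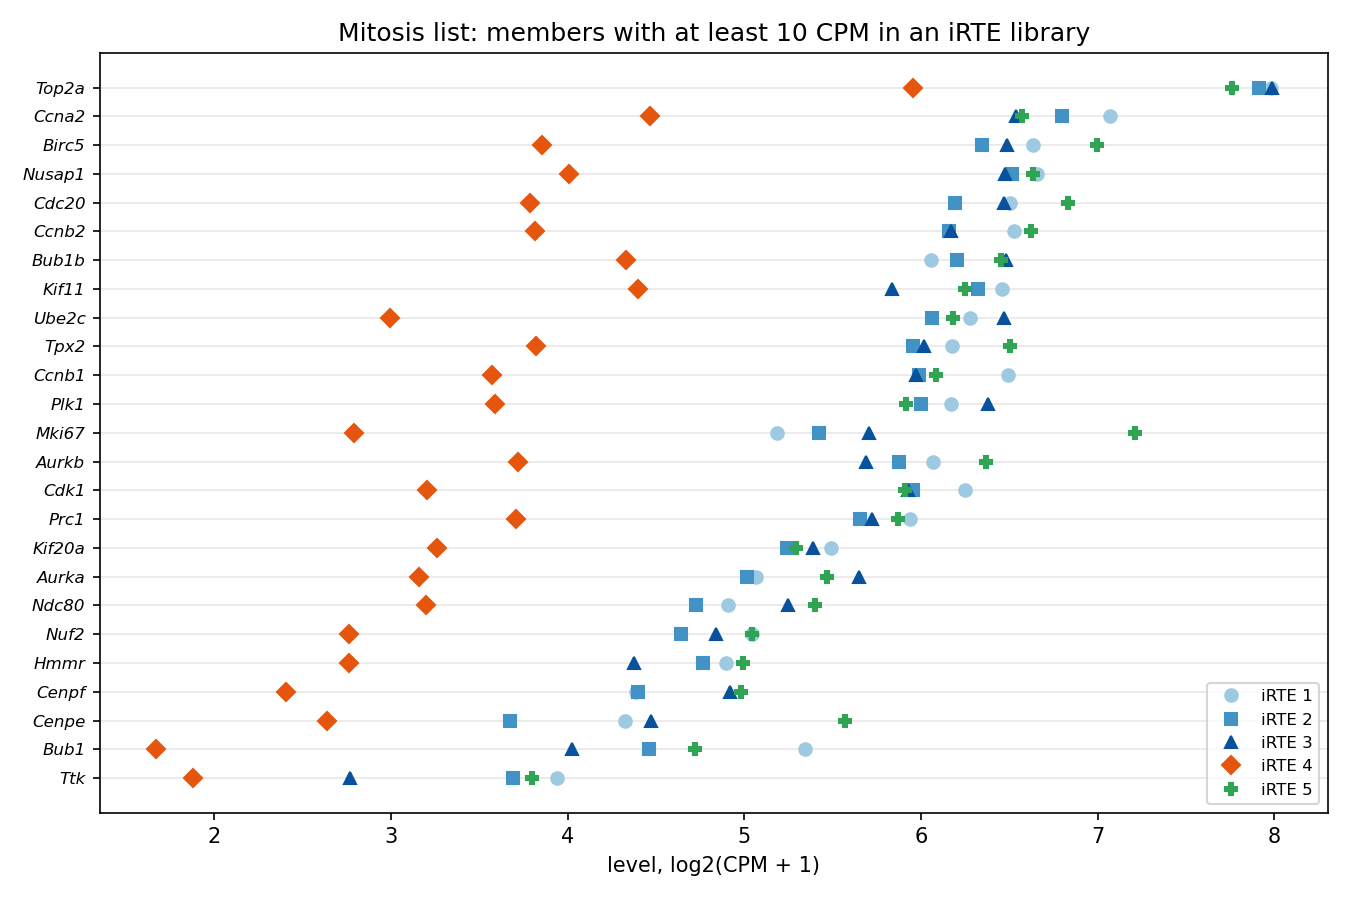
Level of each mitosis list member with at least 10 CPM in an iRTE library, as log2(CPM + 1), 1 symbol per library. iRTE 4 is the lowest symbol in every row, and iRTE 5 lies close to iRTE 1 to 3 in most rows and above them for Mki67.

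The brakes of the cell cycle did not move as 1 group in iRTE 4, where 13 members had a positive and 5 a negative log2 fold. As background, 1.7% of all genes were called higher and 3.17% lower in iRTE 4, and 2.38% lower in iRTE 5. Of 18 members of that list, Tob1, an antiproliferative factor of resting T cells, was called higher at 44.6, 52.2, 42.6, 151 and 42.1 CPM (log2 fold 1.74, edgeR adjusted p = 0.00534). So was Rbl2, the retinoblastoma-related protein p130, at 123, 146, 74.9, 296 and 76.6 CPM (log2 fold 1.40, edgeR adjusted p = 0.0428). The inhibitors Cdkn2c at 28, 25.6, 28.5, 3.06 and 19.7 CPM (log2 fold -3.12, edgeR adjusted p = 0.00518) and Cdkn1a at 12.6, 21.3, 36.9, 1.5 and 19.2 CPM (log2 fold -3.93, edgeR adjusted p = 0.02) were called lower. In iRTE 5 Txnip, a thioredoxin-binding protein that restrains glucose uptake, was called lower at 680.4, 693, 574, 720.3 and 237 CPM (log2 fold -1.43, edgeR adjusted p = 0.0103).

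To show what the promoters of the called cell-cycle, immediate early and interferon genes hold, 150 bases before the start of 6 genes are printed (RefSeq, build GRCm38.p6, which is not the build of the counts). For each of 3 lists they are the 2 called genes of lowest adjusted p that carry the list's motif there, among genes searched in the promoter table. They were chosen after their values were seen. Egr1 had no entry in that table, so it could not be chosen and its promoter was not searched. Capitals mark the matches on either strand. For mitosis these are CCAAT, the box bound by NF-Y, and TTTGAA, a core of the cell-cycle homology region. For the immediate early genes the motif is TGACG, the core of the site of CREB and ATF factors, and for interferon targets it is the core of the interferon-stimulated response element, which is GAAA, any 2 bases and GAAA again.
Ube2c (chr2:164769779-164769928, plus strand): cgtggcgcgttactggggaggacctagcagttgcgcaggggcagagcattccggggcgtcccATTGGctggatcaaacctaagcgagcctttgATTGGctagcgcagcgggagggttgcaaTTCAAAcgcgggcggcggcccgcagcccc
Cdk1 (chr10:69352913-69353062, minus strand): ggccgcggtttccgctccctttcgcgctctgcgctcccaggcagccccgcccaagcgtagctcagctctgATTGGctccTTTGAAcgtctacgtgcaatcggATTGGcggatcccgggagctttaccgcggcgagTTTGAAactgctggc
Fos (chr12:85473740-85473889, plus strand): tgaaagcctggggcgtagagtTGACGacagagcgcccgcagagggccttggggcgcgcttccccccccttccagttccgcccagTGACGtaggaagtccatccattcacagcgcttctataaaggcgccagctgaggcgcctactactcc
Junb (chr8:84978749-84978898, minus strand): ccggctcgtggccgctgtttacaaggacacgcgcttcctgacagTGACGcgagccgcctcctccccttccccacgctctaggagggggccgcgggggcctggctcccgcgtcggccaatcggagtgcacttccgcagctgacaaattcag
Isg15 (chr4:156200819-156200968, minus strand): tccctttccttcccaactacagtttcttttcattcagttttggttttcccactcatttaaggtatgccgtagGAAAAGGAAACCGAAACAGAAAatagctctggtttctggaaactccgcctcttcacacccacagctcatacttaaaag
Ifit1 (chr19:34640739-34640888, plus strand): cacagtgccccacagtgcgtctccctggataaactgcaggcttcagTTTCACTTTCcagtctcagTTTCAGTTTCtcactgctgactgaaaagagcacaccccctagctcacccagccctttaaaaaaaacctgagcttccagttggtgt
Cdk1, the kinase that starts mitosis, stood at 75.1, 61, 59.8, 8.23 and 59.1 CPM (log2 fold -2.95, edgeR adjusted p = 0.00308, for iRTE 4). Ube2c and Cdk1 hold both cell-cycle motifs, and Isg15 and Ifit1 hold repeated matches to the interferon element. Of the 25 mitosis genes, 21 matched the promoter table, with 22 promoters. CCAAT lay in the 250 bases before the start of 18 of them (81.8%), against 33.8% of all 32851 promoters, and TTTGAA in 8 (36.4%), against 16.0%. TGACG lay in 18 of 28 immediate early promoters (64.3%, 19 of 24 genes matched) against 17.8%. The interferon element lay in 15 of 39 interferon promoters (38.5%, 32 of 44 genes matched) against 2.98%. These 4 were chosen among 9 motifs searched after the levels had been seen. The other searches gave TGACGTCA, which contains TGACG, in 7.14% of immediate early promoters (1.55% of all), the serum response element in 17.9% (1.47%) and an NF-kappa-B site (GGGAA followed by TTTCC) in 0 (0.0852%). TTCCCGCC lay in 12.0% of the replication promoters (1.86% of all) and TCACCCCAC in 5.0% of the cholesterol promoters (0.496%). A match is a run of letters and does not show that a factor binds.

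Sterol synthesis genes were called lower in iRTE 4, and none was called lower in iRTE 5. Of all genes, 3.17% were called lower in iRTE 4 and 2.56% higher in iRTE 5, with median log2 folds of 0 and -0.03. The calls higher in iRTE 5, given below, were lost with limma-voom and in a fit with 1 library left out. The cholesterol synthesis list averaged 5.92, 5.85, 5.82, 4.59 and 6.27 log2 CPM, and 8 of 24 tested members were called lower in iRTE 4, with a median log2 fold of -1.14. In iRTE 5, 2 were called higher, with a median of 0.41. Sqle, squalene epoxidase, stood at 79.8, 61.4, 75.8, 25.3 and 146 CPM (log2 fold -1.48, edgeR adjusted p = 0.0232 for iRTE 4, log2 fold 1.04, edgeR adjusted p = 0.0352 for iRTE 5). Fdps, which makes farnesyl pyrophosphate, stood at 209, 185, 259, 57.2 and 326 CPM (log2 fold -1.89, edgeR adjusted p = 0.00846, for iRTE 4). The count in iRTE 4 was 2 with limma-voom and 18 in the fit of all 18 libraries.

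Some genes of activation and effector function were called lower in iRTE 4, and fewer in iRTE 5, while most members of these lists did not pass the threshold. The share of all genes called lower was 3.17% in iRTE 4 and 2.38% in iRTE 5, and 2.56% were called higher in iRTE 5. The cytotoxic effector list averaged 5.14, 5.33, 4.76, 4.13 and 4.52 log2 CPM, with 6 of 24 tested members called lower in iRTE 4 and 3 lower and 1 higher in iRTE 5. Gzmb, the protease granzyme B, stood at 93.4, 122, 123, 6.86 and 227 CPM, lowest in iRTE 4 (log2 fold -4, edgeR adjusted p = 0.00113) and highest in iRTE 5 (log2 fold 1.04, edgeR adjusted p = 0.0361). Nkg7, a granule membrane protein, stood at 1281, 1079, 1300.2, 553 and 859 CPM (log2 fold -1.10, edgeR adjusted p = 0.0258, for iRTE 4). The chemokine Ccl5 stood at 123, 128, 96.1, 115 and 27.8 CPM and was called lower in iRTE 5 and not in iRTE 4 (log2 fold 0.04, edgeR adjusted p = 0.942 for iRTE 4, log2 fold -2.03, edgeR adjusted p = 0.00528 for iRTE 5).

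The activation and costimulation list averaged 6.21, 6.23, 6.12, 5.15 and 6.04 log2 CPM, with 4 of 19 members called lower in iRTE 4 and 3 in iRTE 5, beside the same shares. Tnfrsf9, the costimulatory receptor 4-1BB, stood at 46.2, 50.8, 50.2, 1.43 and 7.46 CPM, below iRTE 1 to 3 in both other libraries (log2 fold -5.05, edgeR adjusted p = 0.00109 for iRTE 4, log2 fold -2.69, edgeR adjusted p = 0.00266 for iRTE 5). The inhibitory receptor list averaged 5.04, 4.83, 4.52, 3.35 and 3.70, with 4 of 11 members called lower in iRTE 4 and 2 in iRTE 5. Cd160 stood at 318, 274, 242, 20.1 and 98.7 CPM (log2 fold -3.75, edgeR adjusted p = 0.00113 for iRTE 4, log2 fold -1.47, edgeR adjusted p = 0.0133 for iRTE 5). Cd244, also known as 2B4, stood at 31.4, 17.3, 10.9, 0 and 1.48 CPM, with 0 counts in iRTE 4, where its fall from the mean of iRTE 1 to 3 was at least 106-fold (edgeR adjusted p = 0.00534). The 2 libraries lay below iRTE 1 to 3 for all 3 of these receptors, and iRTE 4 lay below iRTE 5. Both libraries lay below iRTE 1 to 3 for 17% of all genes. Other abundant inhibitory receptors differed. Cd96 was highest in iRTE 4, at 606, 514, 498, 621 and 315 CPM, and Pecam1 in iRTE 5, at 117, 113, 89.9, 111 and 127 CPM. Ctla4 lay below iRTE 1 to 3 in iRTE 4 and in iRTE 5 and was called in neither, at 159, 203, 162, 144 and 135 CPM. Pdcd1 (PD-1) was low throughout, at 3.95, 7.21, 2.29, 1.81 and 2.7 CPM. Adjacent to these, the cytokine list averaged 4.11, 4.28, 4.06, 3.03 and 4.22. Xcl1, a chemokine for cross-presenting dendritic cells, stood at 19, 15.6, 5.29, 0.249 and 0.386 CPM (log2 fold -5.64, edgeR adjusted p = 0.0206 for iRTE 4, log2 fold -5.04, edgeR adjusted p = 0.0229 for iRTE 5), and Tnf at 7.89, 10.6, 8.99, 3.87 and 38 CPM (log2 fold 2.08, edgeR adjusted p = 0.0113, for iRTE 5).

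The naive and homing list and the DP thymocyte list both averaged highest in iRTE 4 among the 5 libraries. The DP thymocyte list stood at 5.71, 5.90, 5.80, 6.28 and 6.01 log2 CPM, with a median log2 fold of 0.37 in iRTE 4. The naive and homing list averaged 7.82, 7.71, 7.63, 8.28 and 7.53 log2 CPM, with a median log2 fold of 0.40 in iRTE 4. Its means were 8.39 to 8.42 in the splenic, 7.35 to 7.38 in the DP and 7.15 to 7.37 in the OP9 CD8 libraries. Of 28 members, 4 were called higher and 0 lower in iRTE 4, beside 1.7% of all genes called higher, and 2 were called higher and 3 lower in iRTE 5, beside 2.56% and 2.38%. Ly6c1, a surface protein of subsets of naive and memory CD8+ cells, stood at 36.5, 15.8, 10.9, 242 and 132 CPM (log2 fold 3.56, edgeR adjusted p = 0.00596 for iRTE 4, log2 fold 2.67, edgeR adjusted p = 0.0171 for iRTE 5). Cd55, the complement decay-accelerating factor, stood at 39.9, 35.8, 26, 128 and 18.8 CPM (log2 fold 1.95, edgeR adjusted p = 0.00658, for iRTE 4). Il6ra, the interleukin 6 receptor chain, stood at 31.4, 29.4, 16.3, 94.1 and 80.8 CPM (log2 fold 1.91, edgeR adjusted p = 0.0178 for iRTE 4, log2 fold 1.68, edgeR adjusted p = 0.0296 for iRTE 5). Other genes used to name naive cells did not pass the threshold in iRTE 4. Ccr7 stood at 574, 564, 653, 999 and 665 CPM (log2 fold 0.78, edgeR adjusted p = 0.0564), S1pr1 at 972, 1022, 834, 1605 and 571 CPM (log2 fold 0.81, edgeR adjusted p = 0.0571) and the factor that drives S1pr1, Klf2, at 638, 687, 833, 1194 and 399 CPM (log2 fold 0.77, edgeR adjusted p = 0.0724). For these 3 genes iRTE 4 was the highest of the 5 libraries. Of the most abundant members of the list, Tcf7 was also highest there, at 1474, 1453, 1236, 1761 and 1326 CPM. Itgb7, Ms4a4b and Itgae instead lay below iRTE 1 to 3 in iRTE 4. They stood at 2360, 2290, 2858, 2054 and 1636 CPM, 1677, 1684, 1783, 1290 and 1461 CPM, and 1474, 1543, 1538.5, 990 and 599 CPM. Of the 28 members, 20 had a positive and 8 a negative log2 fold in iRTE 4. Ccr9, the gut-homing and thymic chemokine receptor, stood at 587, 596, 686, 862 and 835 CPM and was called in neither library. Without iRTE 3 the count called higher in iRTE 4 rose from 4 to 16.

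The T-cell receptor and signalling list as a whole lay at the background in iRTE 4. Of its 30 members 1 was called lower and 0 higher, beside 3.17% and 1.7% of all genes, with a median log2 fold of -0.04. That gene was Skap1, an adaptor that links the T-cell receptor to integrin adhesion, at 679.5, 685, 633, 30.6 and 401 CPM (log2 fold -4.41, edgeR adjusted p = 0.000501). Cd8a, the alpha chain of the co-receptor on which the cells were sorted, stood at 1357, 1388, 1257, 457 and 1346 CPM, lower in iRTE 4 (log2 fold -1.51, edgeR adjusted p = 0.00718), whereas Cd8b1, the beta chain, was highest there, at 2685, 2262, 1976, 3306 and 2525 CPM (log2 fold 0.56, edgeR adjusted p = 0.163). Gpr15, a homing receptor of T cells bound for the colon, stood at 47.5, 29, 16.2, 627 and 96.1 CPM (log2 fold 4.38, edgeR adjusted p = 0.00217), and Nrp1, a semaphorin receptor that is also a marker of thymus-derived regulatory T cells, at 19, 13, 18.8, 271 and 41.3 CPM (log2 fold 4.04, edgeR adjusted p = 0.000501). Gpr15 ranged over 0.179 to 0.961 CPM in splenic cells, 138 to 174 in the OP9 CD8 and 145 to 173 in the DP libraries, all below iRTE 4. Nrp1 ranged over 0.374 to 1.79, 239.7 to 286 and 288 to 359 CPM in the same groups, so iRTE 4 lay within the OP9 CD8 range and iRTE 1, 2, 3 and 5 below it.

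Among the genes with the widest gap below the other 4 libraries in iRTE 4 were Kntc1, Slc2a6, Ripk3, Gp49a and Dsg2. Kntc1, a kinetochore protein, stood at 56.7, 36.1, 25.6, 0 and 16.4 CPM and Slc2a6, a lysosomal hexose transporter, at 22.6, 26.2, 33.3, 0 and 14.1 CPM, both with 0 counts in iRTE 4. Ripk3, the kinase of necroptosis, stood at 39.2, 38.9, 37.3, 0.624 and 27.4 CPM (log2 fold -5.89, edgeR adjusted p = 0.00109). Gp49a stood at 31.3, 25.4, 24.2, 0.873 and 24.4 CPM and the desmosomal cadherin Dsg2 at 29.1, 53.6, 40.7, 0.499 and 10.1 CPM. The genes with the widest gap above were low in the other iRTE libraries. They were Nhsl2 at 3.37, 1.96, 1.59, 47.9 and 0 CPM, Nccrp1 at 1.83, 0.534, 2.03, 32.5 and 0.643 CPM, the matrix protein Npnt at 0, 0, 0.353, 23.1 and 1.67 CPM, Arhgef5 at 1.92, 0, 0, 20.7 and 0 CPM, Pla2g4a, a cytosolic phospholipase A2, at 0.962, 0, 0, 13.3 and 0 CPM and H2-Ob at 0, 0, 0, 10.04 and 0 CPM. Some were higher still in other groups. H2-Ob ranged over 36.2 to 43.9 CPM in splenic CD8, Npnt over 29.7 to 35.4 in OP9 CD8, Nhsl2 over 18.3 to 25.7 in DP and Nccrp1 over 16.5 to 29.2 in DP, the last 2 below iRTE 4. These genes were selected for that gap, so the values are a description.

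iRTE 5 was set apart by immediate early genes and their feedback inhibitors. The immediate early list averaged 4.73, 4.51, 4.37, 3.87 and 6.66 log2 CPM, against 4.22 to 4.40 in the splenic, 4.26 to 4.48 in the DP and 3.80 to 3.99 in the OP9 CD8 libraries. Of its 24 members 23 were tested in the iRTE 5 fit and 19 in the fit of all 5 libraries. In iRTE 5, 8 were called higher and 0 lower, beside 2.56% of all genes called higher, and in iRTE 4, 0 were called in either direction (edgeR). The feedback list averaged 4.78, 4.90, 4.77, 4.41 and 6.52, with 9 of 18 tested members called higher in iRTE 5 and 1 called lower in iRTE 4. In iRTE 5 the median log2 fold was 1.93 for the first list and 1.95 for the second, against -0.03 over all genes. With 1 of iRTE 1 to 3 left out in turn, 10 to 17 and 8 to 11 members were called.

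Fos, a subunit of AP-1, stood at 1.73, 1.33, 1.06, 0.436 and 148 CPM (log2 fold 6.77, edgeR adjusted p = 1.92e-05, for iRTE 5). Egr1 stood at 20.1, 18.8, 16.1, 5.18 and 358 CPM (log2 fold 4.31, edgeR adjusted p = 2.82e-05, for iRTE 5) and Nr4a1, which encodes Nur77, a widely used reporter of receptor signalling, at 5.97, 1.69, 3, 1.12 and 114 CPM (log2 fold 5.03, edgeR adjusted p = 0.000676). In all 3 genes iRTE 5 was more than 10-fold above each of the other 4 libraries, and iRTE 4 was the lowest. Junb, whose promoter is printed above with that of Fos, stood at 110.5, 107, 145, 92 and 857 CPM (log2 fold 2.85, edgeR adjusted p = 0.000312). Its relative Jund did not follow, at 353, 383, 459.7, 637 and 458 CPM (log2 fold 0.22, edgeR adjusted p = 0.596). Cd69, which holds activated cells in tissue by removing S1pr1 from the surface, stood at 109, 83.8, 43.9, 27.8 and 1294 CPM (log2 fold 4.06, edgeR adjusted p = 0.000659), and S1pr1 itself, given above, was lowest in iRTE 5 and not called there (log2 fold -0.70, edgeR adjusted p = 0.106). In splenic CD8 cells these genes lay between the extremes, at 3.26 to 3.61 CPM for Fos, 52.3 to 63.3 for Egr1 and 223 to 257 for Cd69.

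Among the feedback genes, the phosphatase Dusp5 stood at 43.9, 46.4, 40.5, 52.3 and 387 CPM (log2 fold 3.17, edgeR adjusted p = 0.000134) and Tnfaip3, the NF-kappa-B inhibitor A20, at 55.6, 61.4, 39.2, 38.1 and 427 CPM (log2 fold 3.06, edgeR adjusted p = 0.000487). Nfkbia, the inhibitor I-kappa-B alpha, stood at 141, 131, 188, 78.8 and 579 CPM (log2 fold 1.95, edgeR adjusted p = 0.0023). The cytokine-signal inhibitors Socs1, at 200.1, 239, 315, 137 and 155 CPM, and Socs3, at 116, 135, 161, 184 and 118 CPM, were not called in iRTE 5. Rgs1, a regulator of chemokine receptor signalling, stood at 24.9, 28.9, 34.2, 2.99 and 62.6 CPM, called lower in iRTE 4 (log2 fold -3.25, edgeR adjusted p = 0.00534) and not called in iRTE 5 (log2 fold 1.12, edgeR adjusted p = 0.0525). Myc stood at 298, 340.2, 341, 304 and 829 CPM, highest in iRTE 5 (log2 fold 1.37, edgeR adjusted p = 0.00524), and the ribosome biogenesis list, which holds Myc targets, averaged 7.05, 7.05, 7.01, 7.05 and 7.26, with 3 of 24 members called higher and 1 lower in iRTE 5, beside 2.56% and 2.38% of all genes. Gadd45g, a stress-response gene in the apoptosis list, stood at 24.4, 19.4, 29.7, 11.8 and 239 CPM (log2 fold 3.31, edgeR adjusted p = 0.000312), and Atf4, a factor of the amino acid response, at 72, 65.6, 53.7, 56.7 and 153 CPM (log2 fold 1.29, edgeR adjusted p = 0.0171). Whether time or handling before lysis differed between the libraries is not given in the sources used here.

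**Figure D4:**
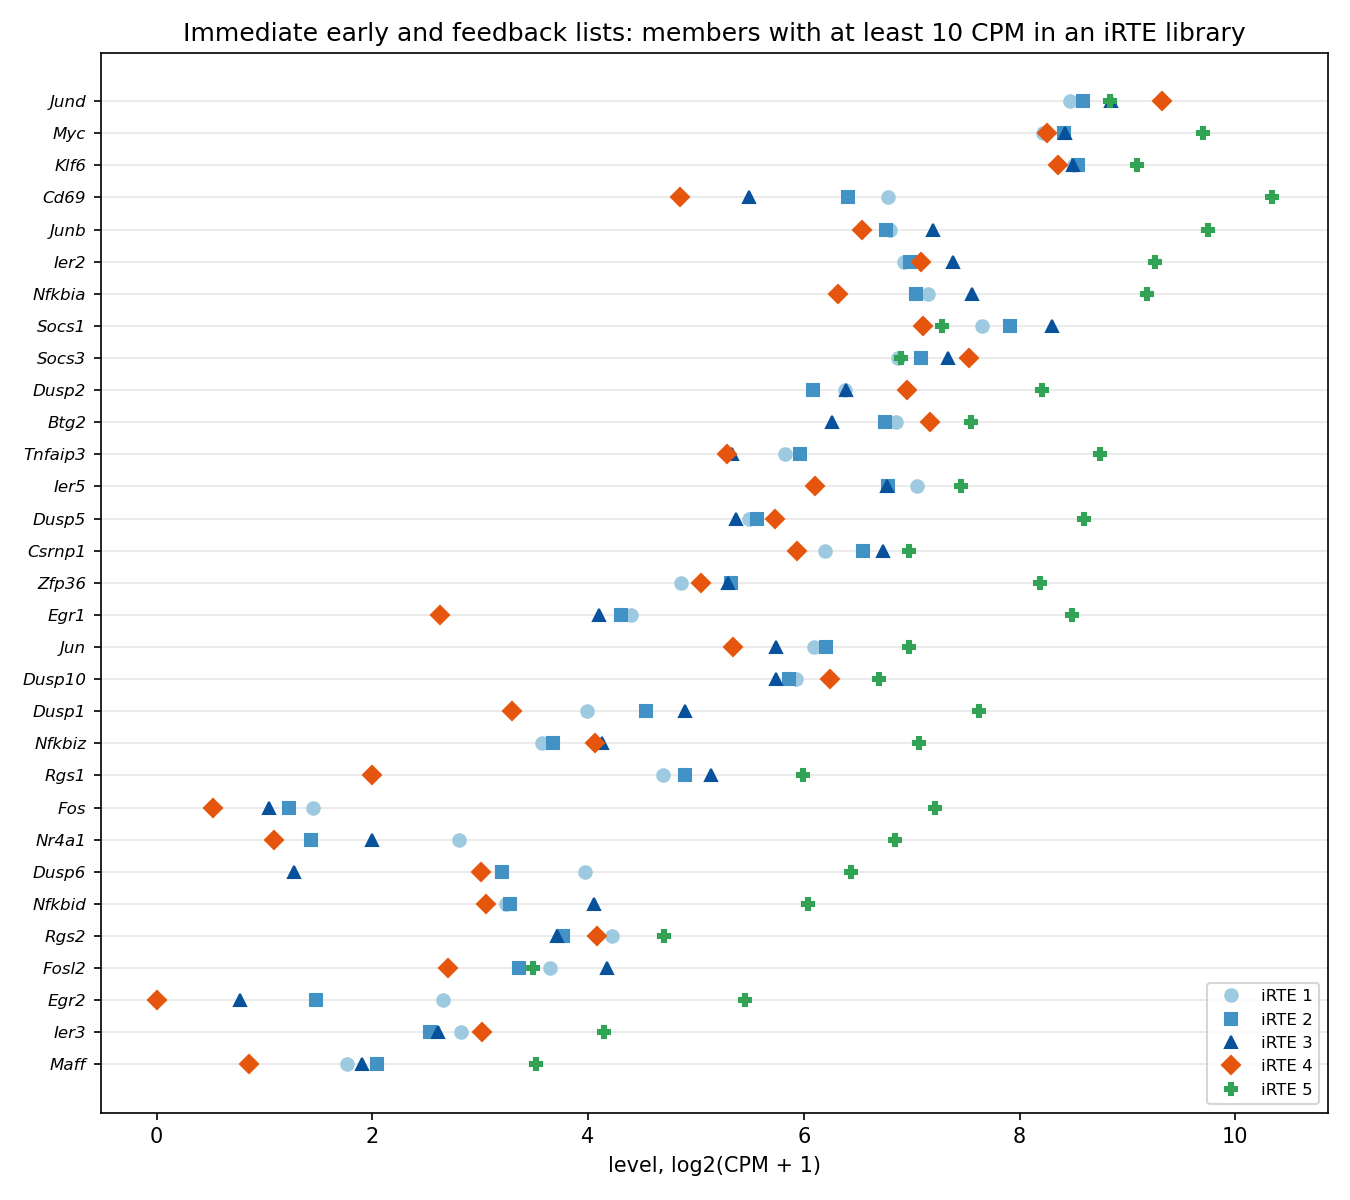
Level of each member of the immediate early and feedback lists with at least 10 CPM in an iRTE library, as log2(CPM + 1), 1 symbol per library. iRTE 5 is to the right of the other 4 libraries in most rows, by the widest gap for Fos, Nr4a1 and Egr1.

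Several genes were lowest in iRTE 5. Dpp4, the surface peptidase CD26, stood at 499, 529, 309.8, 403 and 26.6 CPM (log2 fold -4.04, edgeR adjusted p = 0.00083), and Il27ra, the interleukin 27 receptor chain, at 125, 122, 157, 173 and 5.34 CPM (log2 fold -4.63, edgeR adjusted p = 0.000304). Pfkp, a phosphofructokinase of glycolysis, stood at 195, 179, 141, 163 and 17.6 CPM (log2 fold -3.27). The glycolysis list averaged 6.21, 6.18, 6.11, 6.01 and 6.20 log2 CPM. In iRTE 5 its median log2 fold was 0.06, with 14 of 23 members positive and 9 negative. In iRTE 4 the median was -0.49, with 8 positive and 15 negative. The list summed to 6980 CPM in iRTE 4, against 11100 to 12300 in iRTE 1 to 3 and 10700 in iRTE 5. Gapdh stood at 1842, 1718, 2274, 538 and 1224 CPM and Ldha at 2904, 2588, 2765, 1524 and 2819 CPM. Il7r, the receptor chain for interleukin 7, stood at 287, 337, 280.5, 256 and 126 CPM (log2 fold -1.24, edgeR adjusted p = 0.0214), and Tbx21, the effector factor T-bet, at 9.53, 7.29, 4.23, 0.998 and 0 CPM, with 0 counts in iRTE 5. Tbx21 also lay below iRTE 1 to 3 in iRTE 4, where it was not called (log2 fold -2.76, edgeR adjusted p = 0.0783). The lysosomal enzyme Aga stood at 31.2, 36.2, 32.8, 35.4 and 0.707 CPM, the carboxypeptidase Cpd at 15.6, 15.9, 13.1, 13.8 and 0.0643 CPM, Phyh of peroxisomal fatty acid oxidation at 45.4, 40.1, 49.4, 69.4 and 1.61 CPM and Rassf3 at 12.6, 19, 13.4, 35 and 0.386 CPM. Aga, Cpd, Phyh, Rassf3 and Il27ra were selected for their gap below the other 4 libraries. iRTE 4 lay within or above the range of iRTE 1 to 3 for Dpp4, Il27ra, Pfkp, Aga, Cpd, Phyh and Rassf3.

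On the high side, iRTE 5 stood above the other iRTE libraries for genes of different kinds. Igf2, an imprinted fetal growth factor, stood at 3.27, 8.1, 5.64, 11.4 and 177 CPM (log2 fold 4.98, edgeR adjusted p = 0.000304) against 24.7 to 38.2 CPM in DP, 17.8 to 32.3 in OP9 CD8 and 0 counts in the splenic libraries. Trim71, a regulator of early development, stood at 0, 0, 0, 0 and 4.57 CPM, with counts in iRTE 5 alone (at least 15.8-fold higher than the highest floor of iRTE 1 to 3, edgeR adjusted p = 0.031). The pluripotency genes Nanog and Pou5f1 were at or near 0, with 0 counts of Nanog in all 5 libraries. Of the imprinted and fetal list, 2 of 9 tested members were called higher, beside 2.56% of all genes. Rag1, of the recombinase that ends with maturation, stood at 0, 0, 0.0882, 0 and 3.09 CPM and Rag2 at 0, 0, 0, 0.748 and 1.22 CPM, neither called. The nuclear RNAs Neat1 and Malat1 stood at 7.8, 10.6, 13.5, 33.1 and 262 CPM (log2 fold 4.65, edgeR adjusted p = 0.000103) and 103, 106, 154, 169.98 and 398 CPM (log2 fold 1.75, edgeR adjusted p = 0.00538). In splenic cells Neat1 ranged over 133 to 146 CPM, below iRTE 5 and above the other 4 libraries, and Malat1 over 1037 to 1376, above all 5. Erdr1, a gene of multiple copies whose reads are uncertain, stood at 9.14, 9.52, 10.6, 15.7 and 287 CPM (log2 fold 4.90, edgeR adjusted p = 1.92e-05), and Ccrl2 at 0, 0, 0, 0 and 11.9 CPM. Agpat9 stood at 0, 0.623, 0, 0.436 and 17 CPM, against 24.1 to 36.5 in DP and 182 to 200.1 in OP9 CD8 libraries.

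Some interferon response genes were called lower in iRTE 4 and some in iRTE 5, each above the share of all genes. The interferon response list averaged 5.67, 5.81, 5.66, 4.56 and 5.03 log2 CPM, against 6.72 to 6.81 in splenic, 4.02 to 4.16 in OP9 CD8 and 3.67 to 3.93 in DP libraries. Of 43 members tested, 18 were called lower and 0 higher in iRTE 4, and 10 lower and 2 higher in iRTE 5, beside 3.17% and 2.38% of all genes called lower. The median log2 fold was -0.96 in iRTE 4 and -0.67 in iRTE 5. As both comparisons use iRTE 1 to 3, their values are given side by side only. Isg15, a ubiquitin-like modifier, stood at 54, 58.7, 62.6, 5.24 and 25.7 CPM (log2 fold -3.44, edgeR adjusted p = 0.00217 for iRTE 4, log2 fold -1.16, edgeR adjusted p = 0.0443 for iRTE 5). Ifit1, which binds foreign RNA caps, stood at 83, 103, 72.1, 9.04 and 15.9 CPM (log2 fold -3.21, edgeR adjusted p = 0.00308 for iRTE 4, log2 fold -2.42, edgeR adjusted p = 0.0041 for iRTE 5). Irf7, the factor that amplifies interferon production, stood at 82, 82.1, 95.5, 26.9 and 7.07 CPM (log2 fold -1.64, edgeR adjusted p = 0.0126 for iRTE 4, log2 fold -3.59, edgeR adjusted p = 0.000578 for iRTE 5). The order differed by gene, with Isg15 and Ifit1 lowest in iRTE 4 and Irf7 lowest in iRTE 5. In the opposite direction, Irf1 stood at 291, 317, 352, 215 and 712 CPM (log2 fold 1.18, edgeR adjusted p = 0.0115, for iRTE 5) and Oas1a at 0.674, 2.58, 1.59, 0 and 32.5 CPM (log2 fold 4.34, edgeR adjusted p = 0.00361, for iRTE 5). With limma-voom 8 and 4 members were called lower, and in the fit of all 18 libraries 22 were called lower in iRTE 5.

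The MHC class I list averaged 8.30, 8.21, 8.27, 7.47 and 8.04, with 4 of 22 members called lower in iRTE 4 and 2 lower and 1 higher in iRTE 5. The shares of all genes were 3.17% lower in iRTE 4, and 2.38% lower and 2.56% higher in iRTE 5. H2-Q6 stood at 93.5, 89.5, 76.4, 8.11 and 26.2 CPM (log2 fold -3.38, edgeR adjusted p = 0.00217 for iRTE 4, log2 fold -1.70, edgeR adjusted p = 0.00987 for iRTE 5), although near-identical copies of this family can share reads. The classical genes H2-K1 and H2-D1 and their light chain B2m were not called in either library. B2m stood at 3268, 2918, 3617, 2088 and 1907 CPM (log2 fold -0.61, edgeR adjusted p = 0.122 for iRTE 4, log2 fold -0.75, edgeR adjusted p = 0.0728 for iRTE 5).

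Ribosomal protein genes averaged 9.54, 9.43, 9.92, 8.81 and 8.93 log2 CPM. All 40 had a negative log2 fold for iRTE 4 and 5 together, with a median of -0.77 against 0.04 over all genes, and 0 of them were called in the comparison of the sets (edgeR). In the single comparisons 3 of 40 were called lower in iRTE 4 and 1 in iRTE 5, beside 3.17% and 2.38% of all genes, so the count in iRTE 5 was at the background. The count for iRTE 4 reached 35 when iRTE 3, the library with the highest ribosomal share, was left out. Rpsa, a protein of the small subunit, stood at 2111, 1963, 2887, 1052 and 957 CPM (log2 fold -1.10, edgeR adjusted p = 0.0492 for iRTE 4, log2 fold -1.25, edgeR adjusted p = 0.0296 for iRTE 5). Processed copies of these genes can share reads. The mitochondrially encoded list averaged 8.54, 8.19, 8.66, 7.25 and 7.22, with 5 of 14 tested members called lower in iRTE 4 and 7 in iRTE 5. mt-Co1, a subunit of cytochrome c oxidase, stood at 7248, 6094, 6158, 2426 and 2103 CPM (log2 fold -1.38, edgeR adjusted p = 0.00966 for iRTE 4, log2 fold -1.60, edgeR adjusted p = 0.00393 for iRTE 5). The DP libraries averaged 7.16 to 7.71, a range that holds iRTE 4 and 5, the OP9 CD8 libraries 7.90 to 8.30 and the splenic libraries 6.58 to 7.07. Oxidative phosphorylation genes encoded in the nucleus averaged 7.95, 7.86, 8.18, 7.34 and 7.79, and 0 of 36 were called in either library (edgeR). Fewer cells of a type and less RNA per cell cannot be told apart in bulk RNA.

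Kit, the stem cell factor receptor of progenitors and mast cells, stood at 74.9, 125, 123, 24.2 and 3.92 CPM (log2 fold -2.12, edgeR adjusted p = 0.0157 for iRTE 4, log2 fold -4.75, edgeR adjusted p = 0.000676 for iRTE 5). Of the 11 mast cell markers, 7 had at most 3 counts in every iRTE library, including the proteases Mcpt4, Cma1 and Tpsb2 at 0 counts. The 3 measured members, Kit with Cpa3 and Hdc, averaged 2.78, 3.15, 3.52, 1.74 and 0.84 log2 CPM, and all 3 had a negative log2 fold in iRTE 4 and in iRTE 5. Cpa3, a mast cell carboxypeptidase, stood at 2.98, 2.76, 2.65, 1.5 and 0.9 CPM and Hdc, which makes histamine, at 1.25, 1.78, 4.23, 0.811 and 1.22 CPM, neither called. Their part in the Kit result was not tested. Kit ranged over 95.5 to 139.9 CPM in DP and 38.2 to 57.2 in OP9 CD8 libraries. Arpp21, a gene of DP thymocytes, was called higher in both, at 1.64, 2.22, 4.32, 20.1 and 23 CPM (log2 fold 2.92, edgeR adjusted p = 0.0227 for iRTE 4, log2 fold 3.09, edgeR adjusted p = 0.0145 for iRTE 5). In the DP thymocyte list, called members went in both directions in each of these libraries, while its mean, given above, was highest in iRTE 4. Its median log2 fold was 0.37 in iRTE 4, with 15 members positive and 6 negative. In iRTE 5 it was 0.17, with 16 positive and 9 negative. Zbtb16, the factor PLZF of innate-like T cells, stood at 2.31, 0.712, 0, 10.2 and 13.6 CPM, above iRTE 1 to 3 in both libraries and called in neither (log2 fold 3.38, edgeR adjusted p = 0.132 for iRTE 4, log2 fold 3.78, edgeR adjusted p = 0.0883 for iRTE 5).

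iRTE 1, 2 and 3 were not uniform. iRTE 3 held 1 gene more than 4-fold above and 2 genes more than 4-fold below every other iRTE library, whereas iRTE 1 and 2 held none. Among the genes selected for the widest gap, the synaptic gene Nrxn3 at 3.18, 4.98, 24, 3.99 and 4.76 CPM and the myosin light chain Myl10 at 8.37, 9.25, 31.1, 1.31 and 1.09 CPM were highest in iRTE 3, and Klhl4 at 14.8, 12.2, 1.68, 16.5 and 28.8 CPM and Pear1 at 15.4, 10.6, 2.2, 22.8 and 25.6 CPM were lowest there. Emid1 at 21.7, 6.05, 1.32, 0.811 and 1.35 CPM and Adam8 at 10.01, 3.29, 0.265, 0 and 1.22 CPM were highest in iRTE 1, and Map6 at 2.79, 14.9, 39.2, 11.3 and 10.7 CPM was lowest there. Il2ra, the alpha chain of the high-affinity interleukin 2 receptor, stood at 54.4, 131, 181, 16.6 and 88.7 CPM, a spread of more than 3-fold within iRTE 1 to 3, and was called lower in iRTE 4 (log2 fold -2.84, edgeR adjusted p = 0.0389). Eomes, a factor of effector and memory cells, stood at 31.7, 15, 5.29, 12.7 and 4.31 CPM, with iRTE 4 inside the range of iRTE 1 to 3 and iRTE 5 below it, and was called in neither. 

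The label of CD8+ T cells was checked against its markers, and Cd8a, Cd8b1 and Cd3e were abundant in all 5 libraries. Cd3e stood at 1342, 1280.1, 1344, 805 and 639.9 CPM, with iRTE 5 called lower (log2 fold -1.02, edgeR adjusted p = 0.0234), and Cd4 had 0 counts in each library. Klrb1c, which encodes NK1.1, stood at 3.95, 2.14, 1.68, 0 and 0 CPM and Itgax, which encodes CD11c, at 3.46, 0, 0.882, 0.873 and 0 CPM. Tcrg-C1, a constant gene of the gamma chain, stood at 674, 518, 355, 353 and 389.9 CPM against 17.3 to 22.2 CPM in splenic cells, although the gamma-delta receptor was in the dump gate. The DP libraries held 371 to 586 CPM of Tcrg-C1 and the OP9 CD8 libraries 902 to 1083. Near-identical copies of this gene can share reads. Cd163l1, the most abundant member of the gamma-delta and innate-like list, ran the other way, at 3127, 2835, 2857, 4253 and 4969.9 CPM, and was called higher in iRTE 5 (log2 fold 0.78, edgeR adjusted p = 0.0389). That list summed to 4510 to 5720 CPM in iRTE 1 to 3, 6280 in iRTE 4 and 7140 in iRTE 5, against 222 to 241 in splenic cells, with 3 of 15 members at most at 3 counts in each library. Among markers of other cells, the defining genes of thymic epithelium Foxn1, Psmb11 and Krt14 had 0 counts in all 5 libraries, and 6 of that list's 15 members had at most 3 counts in each. Of that list only Cdh1 (E-cadherin) and Ctsl passed 10 CPM, and its summed level was 141 to 444 CPM in iRTE 1 to 3, 266 in iRTE 4 and 183 in iRTE 5. The natural killer list summed to 93.1 to 103 CPM in iRTE 1 to 3, 48 in iRTE 4 and 85.8 in iRTE 5, with 9 of 18 members at most at 3 counts in each library. The myeloid list summed to 24.9 to 70.9, 124 and 60.8 CPM, with 14 of 24 members at that floor, and Ctss, a cathepsin, was the largest part of the sum in each library. The B-cell list summed to 16.3 to 18.9, 33.3 and 20.4 CPM with 8 of 18 at the floor and Ms4a1 at 0 counts. The stromal list summed to 3.79 to 7.12, 11 and 3.66 CPM with 14 of 20 at the floor, including Col1a1 and Pdgfra at 0 counts. The part of other cells in the results above was not tested.

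The labels describe 1 Pmel iPSC source, and genes tied to the sex chromosomes and the receptor were read against it. Among Y-linked genes, Eif2s3y was present in all 5 libraries, at 94.9, 83.1, 63.9, 53.9 and 100.04 CPM, and Uty likewise, at 59.8, 41.3, 24.3, 64.9 and 27.7 CPM. Ddx3y, an RNA helicase, stood at 70.4, 43.5, 49.9, 111 and 0 CPM. It had 0 counts in iRTE 5, at least 283-fold below the mean of iRTE 1 to 3, while the DP libraries held 69.4 to 95.7 CPM and the OP9 CD8 libraries 54.7 to 81.3. Kdm5d, a histone demethylase, stood at 8.76, 2.22, 0.353, 82.3 and 0 CPM, with DP at 20.9 to 58.3 CPM and OP9 CD8 at 0 to 3.42. Xist had 0 counts in 4 of the iRTE libraries and 3 counts in iRTE 4. So the 2 pmel_iRTE libraries lay at opposite ends for Ddx3y and Kdm5d, with iRTE 1 to 3 between them. Whether the libraries come from different clones of the source is not given in the sources used here.

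Trbv14, the transgenic beta segment, took 98% of the reads over all beta variable segments in iRTE 1, 97.7% in iRTE 2, 97.6% in iRTE 3, 96.5% in iRTE 4 and 97.6% in iRTE 5. The exact (Clopper-Pearson) 95% interval was 96.4% to 96.7% in iRTE 4 and 97.5% to 97.7% in iRTE 5, which covers counting error only. The remaining segments were uneven. Trbv15 took 0.185% in iRTE 2 and 0.521% in iRTE 3, a single count in iRTE 5 and 0 counts in iRTE 1 and iRTE 4. The exact upper limits for these 2 libraries were 0.00448% and 0.00434%, and the floor of 3 counts equals 0.00364% and 0.00353%. Trbv13-2 stood at 8.76, 16.9, 29.3, 24.4 and 0.964 CPM and was called lower in iRTE 5 (log2 fold -4.21, edgeR adjusted p = 0.023). Trav21-dv12 stood at 4.52, 56.4, 114, 7.54 and 0.257 CPM, high in iRTE 2 and 3 and low in iRTE 1, 4 and 5. The division of Trbv15 and Trav21-dv12 thus ran through iRTE 1 to 3 and not between the named sets. Variable segments resemble each other, and reads can be split between them.

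**Figure D5:**
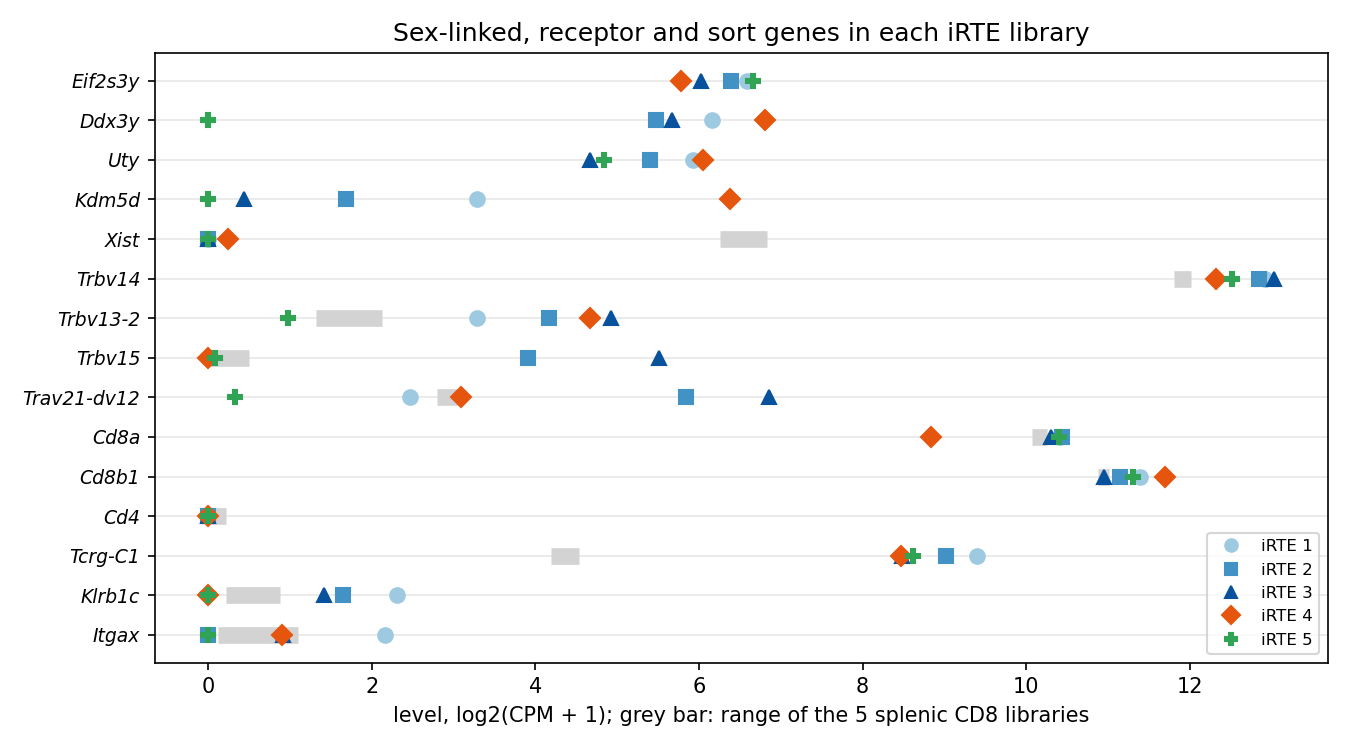
Level of Y-linked genes, Xist, receptor segments, co-receptors and genes of the sort and dump gate in each iRTE library, as log2(CPM + 1), with a grey bar for the range of the 5 splenic CD8 libraries (no bar is visible where all 5 are at 0). iRTE 5 lies at 0 for Ddx3y and Kdm5d where iRTE 4 is highest, and iRTE 2 and 3 are the high libraries for Trbv15 and Trav21-dv12.

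Set beside the other groups over 14487 genes, iRTE 1, 2 and 3 lay 1.67, 1.67 and 1.75 log2 units (root mean square) from the mean of the splenic CD8 libraries, iRTE 4 lay 1.59 and iRTE 5 lay 1.62. The distances to the OP9 CD8 mean were 1.34, 1.32, 1.4, 1.38 and 1.38, and to the DP mean 1.28, 1.28, 1.35, 1.31 and 1.34. Each iRTE library lay 0.77, 0.745, 0.877, 1.1 and 1.09 from the mean of the other 4. All 5 were nearer to the other iRTE libraries than to any other group, and iRTE 4 and 5 were the nearest to the splenic cells by a small margin.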

How the data were processed

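RNA sequencing reads were counted per gene by the authors, who deposited 1 table of raw counts per library over 43280 genes and 1 table of log2 values over 17765 genes. STAR 2.4.2, Subread, edgeR and the mm9 build are named in the submitters' processing notes, while the annotation release and any use of strand are not given in these sources. The deposited log2 table equals TMM-scaled log2 CPM of the counts with a prior count of 2 (largest difference 5.3e-14) and served for that check only. No row lacked a gene name (0 rows), and 0 columns were left unused.

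Levels are CPM after TMM scaling over all 18 libraries. Tests ran on the deposited counts of the 5 iRTE libraries with edgeR 4.0.16 (R 4.3.3): filterByExpr, TMM, robust quasi-likelihood fits and Benjamini-Hochberg adjustment over all genes tested, with a threshold of 0.05. iRTE 4 and iRTE 5 were also each fitted alone against iRTE 1 to 3. The scripts were tested on simulated data. Totals ran from 11132768 to 19305751 counts. An exact permutation test of 3 against 2 samples cannot go below p = 0.1 (two-sided) and was not used. Alternatives were other scalings, filters and fits, limma 3.58.1 (voom), DESeq2 1.42.0 and leaving out each library.

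Genes named are called members of each list with the smallest adjusted p (2 per direction), the members with the highest mean level (4 per list), genes with the widest gap of 1 library to the other 4, the genes called between the sets, and a list of key genes. Predicted and clone-named genes were left out of the gap and set rules. Some genes that these rules choose are not reported here. The libraries compared and the gene lists were chosen with earlier results of these data known. Cdk1 and genes given as absent markers were named after their values were seen. Promoters are from a RefSeq table of GRCm38.p6, whereas the counts belong to mm9.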

Additional observations from a re-analysis of the deposited data

Results flagged for a closer look

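Within the iRTE group, 36 gene lists and 24 single genes were examined for a library far from the other 4, by the ratio of its gap to the range of all 5 (critical value 0.71). Chance gives such a library in about 1 of 20 groups of values, and the lists share genes and libraries. The library concerned was iRTE 4 in 9 cases and iRTE 5 in 6, and in 0 cases iRTE 1, 2 or 3.

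iRTE 4 lay far below the others in the list means of DNA replication (4.53 log2 CPM), mitosis (3.28), cytokines and chemokines (3.03), activation and costimulation (5.15), cholesterol synthesis (4.59) and clustered histones (-0.59). It was likewise lowest for Cd8a, at 457 CPM, and Gzmb, at 6.86 CPM, and highest for Ccr7, at 999 CPM. iRTE 5 lay far above the others in the list means of feedback genes (6.52 log2 CPM) and ribosome biogenesis (7.26) and below them in cell-cycle brakes (6.53). It was highest for Myc, at 829 CPM, and Rag1, at 3.09 CPM, and lowest for Il7r, at 126 CPM.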

How the results depend on the processing

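The number of genes called depends on which libraries supply the spread. Between the sets, 0 genes were higher and 3 lower. Without a filter on low counts the numbers were 5 and 25, with all 18 libraries in 1 fit 1010 and 887, and with DESeq2 212 and 282. With at least 10 CPM in the higher set 5 were lower, and with limma-voom 1. Leaving out 1 library gave 0 to 325 higher and 0 to 396 lower: 0 lower without iRTE 1, 2 or 3, and the single-library counts without iRTE 4 or iRTE 5. For iRTE 4 alone (212 higher, 396 lower) the numbers were 505 and 655 without a filter, 1353 and 1706 with all 18 libraries, 394 and 836 with DESeq2, 110 and 144 with limma-voom, and 396 to 1256 and 555 to 1492 with 1 library left out. For iRTE 5 alone (325 and 302) they were 516 and 475, 1485 and 1393, 633 lower with DESeq2, 111 lower with limma-voom, and 423 to 1433 and 352 to 1847. The largest of these leave-out counts came without iRTE 3. Between iRTE 5 and iRTE 4, a minimum of 1 CPM gave 2061 and 1574 genes past 2-fold. The cause was not tested. With 1 library left out, the shares of the sum of squares ranged from 40.4% to 57.2% between the sets, 40.4% to 44.2% between iRTE 4 and 5 and 14.4% to 44.7% within iRTE 1 to 3.

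Of the named genes called in the single-library comparisons, 66 in iRTE 4 lost the call in 38 of 723 values and 73 in iRTE 5 in 37 of 801, with 3 and 11 genes losing it when a library was left out. The 3 genes called between the sets lost it in 11 of 39 values, and 0 called genes changed sign. Named genes that were not called changed sign in 34 of 678 values between the sets and in 1 of 196 and 1 of 158 in the single comparisons. In the comparison of the sets, which then holds 1 library against 3, the log2 fold took opposite signs with one or the other library left out. Without iRTE 5 and without iRTE 4 in turn it was -4 and 1.04 for Gzmb, -2.81 and 1.81 for Mki67, 1.06 and -12.36 for Ddx3y, and 1.26 and -5.22 for Rassf3. The second Ddx3y value is fitted against 0 counts and is no bound. TMM, RLE and upper-quartile scaling moved the median of all genes by under 0.1 log2 units, and no scaling by 0.101 to 0.129. No paired analysis was possible because iRTE 1 to 3 and iRTE 4 and 5 share no replicate number.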
